A study of Mus musculus with 4 samples.

Results

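The S100 proteins are a family of small calcium-binding proteins of vertebrates, and the genes described here are the 9 members S100a1, S100a4, S100a6, S100a8, S100a9, S100a10, S100a11, S100a13 and S100b. They were chosen by name, and all 9 were found among the 35869 genes listed for each sample. The samples were CD45+ cells, enriched with CD45 microbeads from the stromal vascular fraction of the epididymal white adipose tissue (eWAT) of male wild-type C57BL/6 mice. The mice were fed a normal diet (ND) or a high-fat diet (HFD) for 12 weeks from 8 weeks of age, and 2 samples were sequenced per diet. ND and HFD mice did not differ in any allele or agent named in the labels. The number of mice behind each library is not named, and nothing says that the samples came from separate animals, so p-values measure the spread between these samples only, which may be technical. The comparison asks how diet alters the expression of these genes in the immune cells of fat.

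An S100 protein is built around a pair of EF-hand motifs, loops that take up calcium and then expose a surface which grips target proteins. S100A8 and S100A9 form calprotectin, an abundant cytosolic complex of neutrophils and classical monocytes that is released in inflammation and acts on receptors such as TLR4 and RAGE. S100A4, S100A6, S100A10 and S100A11 are found in many cell types, where they bind myosin and annexins and take part in motility and membrane repair. S100A1 is best known from muscle and S100B from glia, and adipocytes also make S100B.

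In the CD45+ cells, S100a8 and S100a9 fell in HFD to 0.381 and 0.282 of their mean level in ND, in TPM, a share of the sample's transcripts scaled for gene length. S100a1 rose to 1.98 times its ND level. S100a4, S100a6, S100a10, S100a11 and S100a13, which together made up most of the S100 transcripts, did not pass the thresholds, with ratios of mean TPM from 0.838 for S100a4 to 1.25 for S100a11. S100b was listed at no more than 0.9 TPM in any sample.

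**Figure D1:**
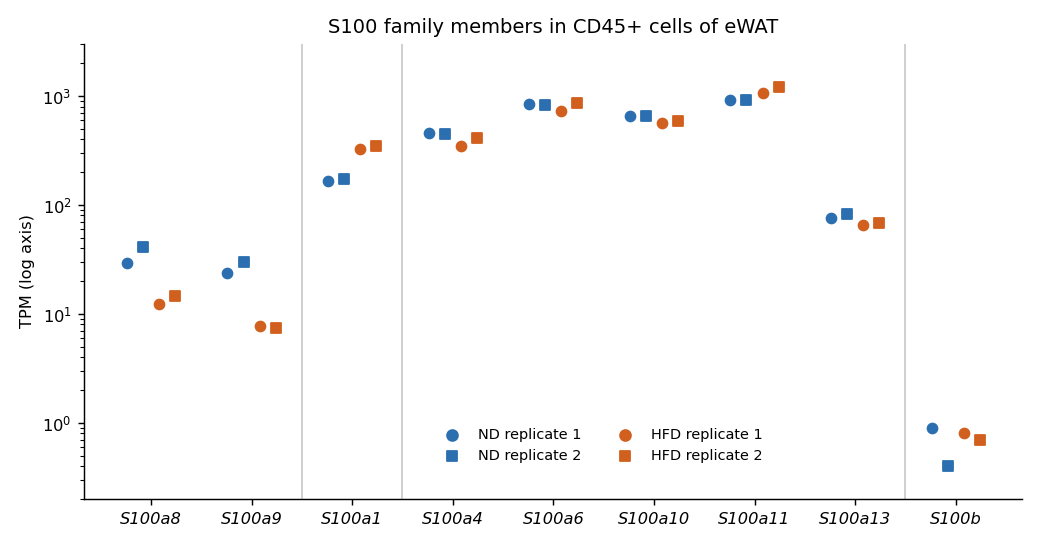
TPM of the 9 S100 members on a log axis, 1 point per sample, blue for ND and orange for HFD, circles for replicate 1 and squares for replicate 2. The HFD points of S100a8 and S100a9 lie below both ND points, those of S100a1 lie above, and the points of the broadly expressed members from S100a4 to S100a13 stay close together.

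Sequences upstream of 3 members are shown, since S100a8 and S100a9 moved together and S100a11 is the most abundant member. They are from RefSeq for GRCm38.p6, the assembly called mm10, read on the strand of the gene, and stop before the outermost start annotated in RefSeq or GENCODE vM21. S100a8 is on the plus strand (chr3:90668821-90668977), S100a9 on the minus strand (chr3:90695722-90695971) and S100a11 on the plus strand (chr3:93520246-93520487). Capitals mark matches of GAGGAAG, a PU.1-type motif found on the opposite strand in S100a8, of TTGCNNAA, a C/EBP-type motif, in S100a9, and of TGANTCA, an AP-1-type motif present at 2 places in S100a11.
S100a8: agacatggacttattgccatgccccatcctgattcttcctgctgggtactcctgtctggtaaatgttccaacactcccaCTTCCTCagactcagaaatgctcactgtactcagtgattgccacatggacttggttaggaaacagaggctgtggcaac
S100a9: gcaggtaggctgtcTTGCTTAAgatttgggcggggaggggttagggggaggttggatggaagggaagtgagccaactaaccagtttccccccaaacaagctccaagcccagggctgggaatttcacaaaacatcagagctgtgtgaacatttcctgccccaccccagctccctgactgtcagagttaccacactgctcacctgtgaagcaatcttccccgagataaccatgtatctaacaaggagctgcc
S100a11: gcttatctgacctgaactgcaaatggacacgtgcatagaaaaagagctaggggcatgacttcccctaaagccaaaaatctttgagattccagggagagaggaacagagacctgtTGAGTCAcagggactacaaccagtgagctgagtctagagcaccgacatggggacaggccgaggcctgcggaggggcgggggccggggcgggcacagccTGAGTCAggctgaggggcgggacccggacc

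A stretch of 30 bases around the TATAAA motif is shown for S100a8 (chr3:90669029-90669058) and S100a4 (chr3:90603727-90603756), both on the plus strand, because the motif lies at nearly the same distance from the RefSeq start, 30 bases before that of S100a8 and 31 before that of S100a4. TATAAA also begins at the RefSeq start itself in S100a9. Capitals mark the motif.
S100a8: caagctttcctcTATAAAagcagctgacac
S100a4: ggcctggcagggTATAAAtaggtcagattg

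Both strands of 300-base windows, from 250 before to 50 after the start, were searched for these motifs, and 8 of the 9 members had a window (S100a10 had none). Among all 32851 windows, the TATA motif was present in 13.6%, the C/EBP-type motif in 10.8%, the AP-1-type motif in 7.81% and the PU.1-type motif in 13.6%. S100a4 also held the PU.1-type motif 18 bases after its start. A match describes letters only and is not a binding site, and no match says only that the letters are not in this window. The windows also differed in CpG dinucleotides. S100a4 and S100a9 held 2, S100b 3, S100a8 4, S100a6 6, S100a1 11, S100a13 14 and S100a11 15, against a median of 7 over all windows. S100a4, S100a8 and S100a9 shared few CpG and a TATAAA motif, and of these S100a4 did not pass the thresholds.

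Diets were compared with limma on log2(TPM + 1), which understates the change of low genes, over the 16849 genes reaching 1 TPM in 2 or more of the 4 samples. A differentially expressed gene (DEG) needed an adjusted p under 0.05 (Benjamini-Hochberg) as well as a 1.5-fold change. Of the 9 members, 8 passed the filter on low values, each with more than 1 TPM in every sample, and S100b did not. Of these 8, 3 were DEGs, where 18.4% of all genes tested were. The DEGs higher in HFD were 8.08% of all genes tested and the DEGs lower in HFD 10.3%, and among the members 1 was higher and 2 were lower. All calls were lost without ND replicate 1 or 2, where the spread is estimated from the HFD samples alone. Each call given here, of members and of other genes, thus needs both ND samples for its error estimate. The log2 fold changes without ND replicate 1 and 2 were 0.96 and 1.01 for S100a1, -1.55 and -1.08 for S100a8 and -1.84 and -1.54 for S100a9. The median log2 fold change of the 8 members was -0.20, and that of all genes tested was 0.056. The groups did not overlap for 7 of the 8 members, where 66.9% of all genes tested had no overlap. HFD was the lower group for 5 of them (32.8% of all genes tested) and the higher for 2 (34.1%). With 8 members, such counts are no result about the family.

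S100a8 codes for the smaller subunit of calprotectin and lies on the plus strand of chromosome 3 (chr3:90668978-90670035 in GENCODE vM21, in 3 exon blocks). Its level was 29.5 and 41.3 TPM with ND against 12.4 and 14.6 TPM with HFD. Both HFD values lay below both ND values, and the ND samples were further apart than the HFD samples. Mean levels were 35.4 ± 8.34 TPM for ND against 13.5 ± 1.56 TPM for HFD (SD, n = 2 per diet). This gave a log2 fold change of -1.31 (SE 0.21, 95% confidence interval -1.93 to -0.69, adjusted p = 0.0292 in limma). Without any filter the adjusted p of S100a8 in limma was 0.106, and with 1 sample left out in turn it lay between 0.0890 and 0.168.

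S100a9 codes for the larger subunit and lies on the minus strand, its 3′ end facing that of S100a8 (chr3:90692632-90695721, in 3 exon blocks). It had 23.9 and 29.7 TPM with ND against 7.7 and 7.4 TPM with HFD. The HFD values nearly coincided and were lower than both ND values. Mean levels were 26.8 ± 4.10 TPM for ND against 7.55 ± 0.212 TPM for HFD (SD, n = 2 per diet), and the log2 fold change was -1.69 (SE 0.13, 95% confidence interval -2.09 to -1.30, adjusted p = 0.00941 in limma). Without HFD replicate 2 the adjusted p of S100a9 in limma was 0.0481, and without any other single sample it lay between 0.0551 and 0.167, with the direction kept. The ranks of the pair among all 16849 genes by decrease were 365 for S100a9 and 607 for S100a8.

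The number of reads behind this pair was estimated. For a transcript of 1 kb, a single read was worth between 0.0607 and 0.0711 TPM in the 4 samples, as judged from whole steps in the values of short microRNA genes. With the exon lengths of GENCODE vM21, S100a8 rested on about 292 and 472 reads for ND against 139 and 143 for HFD, and S100a9 on 178 and 255 for ND against 65.0 and 54.3 for HFD. The annotation used in counting is not given in the sources used here, so these numbers are approximate. Counting error alone would give a coefficient of variation of 4.60% to 8.47% for S100a8 and of 6.26% to 13.6% for S100a9. The ND samples were further apart than this counting error for both genes. The ratio of S100a8 to S100a9 in TPM was 1.23 and 1.39 in ND and 1.61 and 1.97 in HFD, so the transcripts of the subunits were of the same order in every sample.

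S100a1, whose product regulates calcium handling in muscle cells, moved the opposite way. It had 166.5 and 172.1 TPM with ND against 322.6 and 349.4 TPM with HFD, with no overlap and replicates close together in both diets. Mean levels were 169 ± 3.96 TPM for ND against 336 ± 19.0 TPM for HFD (SD, n = 2 per diet). The log2 fold change reached 0.98 (SE 0.06, 95% confidence interval 0.81 to 1.16, adjusted p = 0.00664 in limma). S100a1 was a DEG without HFD replicate 1 or 2 (adjusted p = 0.0323 and 0.0276 in limma) but not without ND replicate 1 or 2 (0.167 and 0.161). Its share of the summed TPM of the 9 members was 5.24% and 5.43% in ND and 10.3% and 9.93% in HFD.

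S100a13, the head-to-head neighbor of S100a1, codes for a protein that assists the release of FGF1 and IL-1α, which lack a signal peptide. The GENCODE vM21 starts of the 2 genes lie 43 bases apart on opposite strands, S100a1 on the minus strand (chr3:90511034-90514392) and S100a13 on the plus strand (chr3:90514435-90524581). S100a13 had 75.7 and 82.4 TPM with ND against 65.5 and 68.8 TPM with HFD, without overlap. Its log2 fold change was -0.23 (95% confidence interval -0.43 to -0.03, adjusted p = 0.0909 in limma), which did not pass. The ratio of S100a1 to S100a13 in TPM was 2.20 and 2.09 in ND and 4.93 and 5.08 in HFD. The confidence intervals of the 2 genes did not overlap, and the difference between their changes was not tested. The RefSeq spans of the 2 genes overlap by 98 bases, and whether strand was used in counting is not given in the sources used here.

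S100a4, which binds nonmuscle myosin and marks motile cells and many leukocytes, had 459.8 and 450.8 TPM with ND against 349.6 and 413.6 TPM with HFD. The groups did not overlap, but the HFD samples were further apart than the ND samples, and the log2 fold change of -0.26 (95% confidence interval -0.55 to 0.04, adjusted p = 0.15 in limma) did not pass. A GENCODE gene model, Gm42674, shares 302 exon bases with S100a4 and is not listed among the genes. S100a6, known as calcyclin, had 852.3 and 827.7 TPM with ND against 731.9 and 865.2 TPM with HFD. The HFD values of S100a6 enclosed the ND values, and its log2 fold change was -0.078 (95% confidence interval -0.37 to 0.22, adjusted p = 0.608 in limma).

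S100a10, the light chain that joins annexin A2 at membranes and which binds calcium poorly, had 652.5 and 648.7 TPM with ND against 567.1 and 588.6 TPM with HFD. Both HFD values were lower, yet the log2 fold change was -0.17 (95% confidence interval -0.28 to -0.06, adjusted p = 0.0518 in limma) and did not pass. S100a11, which binds annexin A1 and A2, was the most abundant member, with 914.5 and 916.9 TPM with ND against 1072.5 and 1211.4 TPM with HFD. Both HFD values were higher than both ND values. Its log2 fold change was 0.32 (95% confidence interval 0.10 to 0.54, adjusted p = 0.0602 in limma), below the 1.5-fold limit. The intervals of S100a10, S100a11 and S100a13 each leave out 0, so small shifts of these genes are within what the data allow, while changes of 1.5-fold lie outside all 5 intervals of the broadly expressed members, except that without a filter those of S100a4 and S100a11 widen to include it.

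S100b had 0.9 and 0.4 TPM with ND against 0.8 and 0.7 TPM with HFD. The groups overlapped. These values correspond to approximately 19.0, 9.8, 19.2 and 14.6 reads, and a difference was not detectable at this depth. Without a filter, the log2 fold change of S100b was 0.10 (95% confidence interval -0.61 to 0.81, adjusted p = 0.975 in limma). Markers of the cells known for S100b were measured beside it. Of 6 Schwann cell markers, Cdh19, Ncmap and Gfra3 were at most 0.2 TPM in every sample, and the summed TPM of the list was 11.4 and 11.2 in ND and 9.4 and 8.6 in HFD, most of it Mbp. The 8 adipocyte markers summed to 112.6 and 110.1 TPM with ND against 118.6 and 95.3 TPM with HFD, with 1 DEG higher (Lep) and 1 lower (Cfd), of which Lep was not called without a filter. Cfd reached 1 TPM in the ND samples only, and Lep in ND replicate 2 and both HFD samples. Each thus met the filter through the diet in which it was high, which makes these calls no support.

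**Figure D2:**
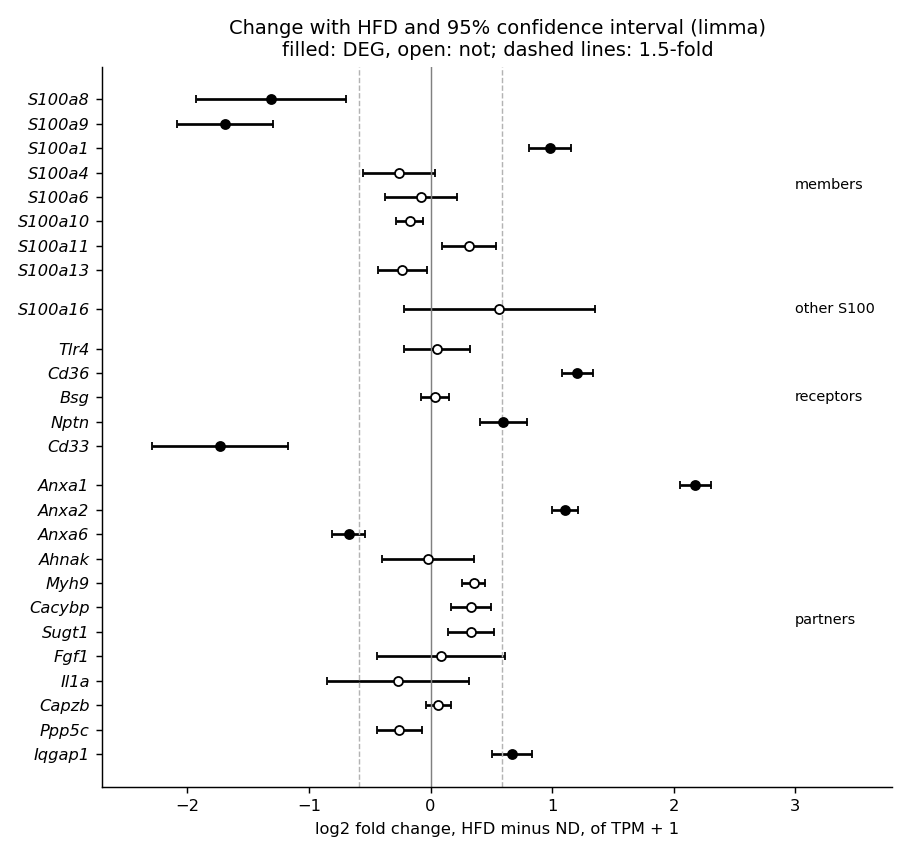
Log2 fold change (HFD minus ND, on the log2(TPM + 1) scale) with 95% confidence intervals from limma for the 8 tested members, S100a16, and the tested genes of receptors and partners of S100 proteins. Filled points are DEGs. S100a8 at -1.31 and S100a9 at -1.69 stand on one side, S100a1 at 0.98 on the other, and the remaining members lie within the dashed 1.5-fold lines.

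The contrast between calprotectin and the broadly expressed members was also taken within each sample, as the mean log2(TPM + 1) of S100a8 and S100a9 minus that of S100a4, S100a6, S100a10, S100a11 and S100a13. This difference was -4.02 and -3.65 in ND and -5.22 and -5.29 in HFD. Both HFD samples lay below both ND samples. The difference between the diets was -1.42, against an SD within a diet of 0.19, and it was not tested, since a score over chosen members gets no p. On the TPM scale, S100a8 and S100a9 together held 1.68% and 2.24% of the summed TPM of the 9 members in ND and 0.642% and 0.625% in HFD. The summed TPM itself was 3175.6 and 3170.0 in ND and 3130.1 and 3519.7 in HFD, so the family as a whole was of similar size in each sample.

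By level, the order in ND was S100a11, S100a6, S100a10, S100a4, S100a1, S100a13, S100a8, S100a9 and S100b. In ND replicate 1 and 2 each neighbor in this order was set apart in the same direction, but the values of S100a8 (29.5 and 41.3 TPM) and S100a9 (23.9 and 29.7 TPM) overlapped. In HFD the order of the members was the same. The ranges of S100a4 and S100a1 were closest to each other there, with 349.6 TPM for S100a4 in HFD replicate 1 and 349.4 TPM for S100a1 in HFD replicate 2, whereas in ND the lowest S100a4 value was far above the highest S100a1 value. TPM are per length, so these levels can be compared between genes only as far as the lengths used were right, and the annotation is not given. Duplicate reads were removed before counting, and the effect of this on the levels of abundant short genes was not tested.

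HFD replicates differed more than ND replicates for S100a1, S100a4, S100a6, S100a10 and S100a11. The reverse held for S100a8, S100a9, S100a13 and S100b, with log2 differences of 0.47, 0.30, 0.12 and -0.44 in ND and 0.22, -0.051, 0.070 and -0.082 in HFD. The log2 difference of replicate 2 minus replicate 1 in HFD was 0.24 for S100a4, 0.24 for S100a6 and 0.18 for S100a11, against -0.028, -0.042 and 0.0038 in ND. All 10 fibroblast markers were also higher in HFD replicate 2, with a summed TPM of 3306.4 in HFD replicate 1 and 6596.8 in HFD replicate 2, against 665.8 and 709.6 in ND. Of these markers 7 were DEGs higher in HFD (8.08% of all genes tested), with 0 in limma without a filter (8 at an unadjusted p under 0.05). Fibroblasts are not CD45+ cells and are known to make S100A4 and S100A6. The median log2 fold change of the fibroblast markers was 2.63, while those of S100a4 and S100a6 were -0.26 and -0.078. The part of fibroblasts in the values of these members was not tested. With HFD replicate 1 left out, S100a6 had a log2 fold change of 0.043, and with HFD replicate 2 left out, S100a4 had one of -0.38.

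Of the other genes of the family, S100a16 alone passed the filter. Of 9 further S100 genes, 8 had a row, and S100a2, S100a3, S100a5, S100a7a, S100a14 and S100z were at most 0.2 TPM in every sample, while S100g reached 0.5 TPM. S100a16, a member with a broad tissue range, had 6.8 TPM in both ND samples and 8.2 and 13.5 TPM in HFD. Its log2 fold change was 0.57 (95% confidence interval -0.22 to 1.35, adjusted p = 0.208 in limma), whereas leaving out HFD replicate 1 gave 0.89 (adjusted p = 0.0326 in limma) and leaving out HFD replicate 2 gave 0.24. Thus 1 of these genes was tested and 0 were DEGs, at an unadjusted p of 0.109 for S100a16 in limma.

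The members sit in a cluster on chromosome 3, except S100b, which is on chromosome 10 (chr10:76253853-76261159). From S100a1 to S100a9 the cluster spans 184.7 kb and S100a11 and S100a10 follow 2.82 and 2.86 Mb further on. Chtop, Snapin and Ilf2, the nearest genes on the other side of S100a1, had log2 fold changes of -0.14, 0.16 and 0.15 and were not DEGs. S100a4 and S100a6, in the middle of the cluster, had -0.26 and -0.078 and did not pass. S100a8 and S100a9, which are separated by 22597 bases at their 3′ ends, stood at the far end and fell together.

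**Figure D3:**
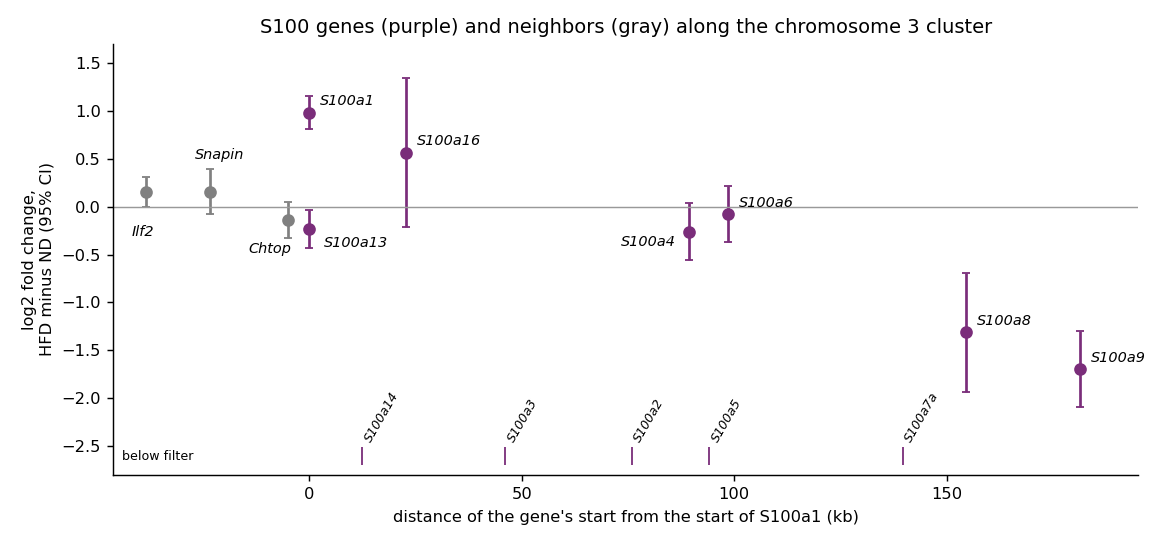
Log2 fold change (HFD minus ND) with 95% confidence intervals against the distance of each gene's start from that of S100a1 in kb, for S100 genes (purple) and neighbors (gray) on chromosome 3, with ticks for S100 genes below the filter. S100a1 at 0.98 and S100a13 at -0.23 share nearly the same position, and S100a8 and S100a9 at the right end are the lowest.

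S100a8 and S100a9 are neutrophil and monocyte genes, and markers of both cell types were measured beside them. In bulk RNA, fewer cells of a type and less RNA per cell cannot be told apart. Ly6g, the defining surface protein of mouse neutrophils, was at most 0.1 TPM in every sample, and Elane and Ngp, granule genes of neutrophil precursors, were at most 0.2 TPM. Other genes of mature neutrophils were detected. Of 12 mature neutrophil markers, 10 were tested, 5 were DEGs lower in HFD and 0 were higher (10.3% and 8.08% of all genes tested). The median log2 fold change of these 10 was -0.65. Retnlg, a resistin-like gene of neutrophils, fell from 13.4 and 19.1 TPM with ND to 6.1 and 6.6 TPM with HFD, a log2 fold change of -1.21 (adjusted p = 0.0317 in limma). Cxcr2, Csf3r, Stfa2l1 and Hdc were the other 4, of which Hdc is also a gene of mast cells and basophils. Cxcr2 and Stfa2l1 reached 1 TPM in the ND samples only and so entered the test through the diet in which they were high, which makes their part of the count no support. Among genes with a mean of 5 TPM or more, Retnlg and Hdc were the DEGs of this list. None of the 5 was a DEG in limma without a filter on low values, where Csf3r, Retnlg and Hdc had an adjusted p of 0.0789, 0.110 and 0.117 and 7 genes of the list an unadjusted p under 0.05. Retnlg also lost its call with any 1 sample left out (adjusted p from 0.106 to 0.167 in limma). Trem1, at 6.2 and 6.0 TPM with ND against 2.0 and 3.3 TPM with HFD, did not pass (adjusted p = 0.0543 in limma). The list summed to 3303.5 and 3268.0 TPM with ND against 3293.9 and 3341.7 TPM with HFD, nearly all of it the chemokine gene Cxcl2, which macrophages also express. Without Cxcl2 the sums were 118.1 and 123.5 TPM with ND against 60.8 and 83.6 TPM with HFD.

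Of 10 neutrophil granule and precursor markers, 5 were tested, and 2 were DEGs lower in HFD (10.3% of all genes tested). Lcn2, the siderophore-binding lipocalin, fell from 71.5 and 72.8 TPM to 36.2 and 29.8 TPM, and Cebpe, a transcription factor of granulocytes that also acts in macrophages, from 35.4 and 34.7 TPM to 6.2 and 4.0 TPM. The list summed to 117.2 and 118.9 TPM with ND against 47.9 and 40.8 TPM with HFD, most of it Lcn2 and Cebpe. Prtn3 (-0.76), Ctsg (-0.72) and Ltf (-0.075) did not pass, and Ngp, Camp, Mpo, Elane and Fcnb had at most 0.5 TPM in every sample. Of 9 classical monocyte markers, all tested, 5 were DEGs lower in HFD and 0 were higher (10.3% and 8.08% of all genes tested). The median log2 fold change of the 9 was -0.82. The list summed to 1216.8 and 1269.9 TPM with ND against 423.6 and 401.0 TPM with HFD. Ly6c2, a surface protein of inflammatory monocytes, fell from 61.6 and 66.3 TPM to 13 and 20.5 TPM, a log2 fold change of -1.90. Ccr2, the receptor that draws monocytes out of the bone marrow, fell by 1.16 on the log2 scale. F13a1 was the most abundant of the list and fell by 2.19, from 836.0 and 869.7 TPM with ND to 240.8 and 143.5 TPM with HFD. Most of the ND sums of the list were thus F13a1, and the fall of the sums follows this gene more than the others. Without a filter Ccr2 alone of the monocyte list was a DEG, while Ly6c2 and F13a1 had an adjusted p of 0.0821 and 0.0857 in limma, and of the granule list Cebpe was and Lcn2 was not (0.0548). Chil3 (0.093) and Hp (0.13), also genes of these cells, did not pass, and Vcan had 0.9 TPM in both ND samples and 2.5 and 6.0 TPM in HFD (adjusted p = 0.0884 in limma). The part of these cells in the fall of S100a8 and S100a9 was not tested.

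**Figure D4:**
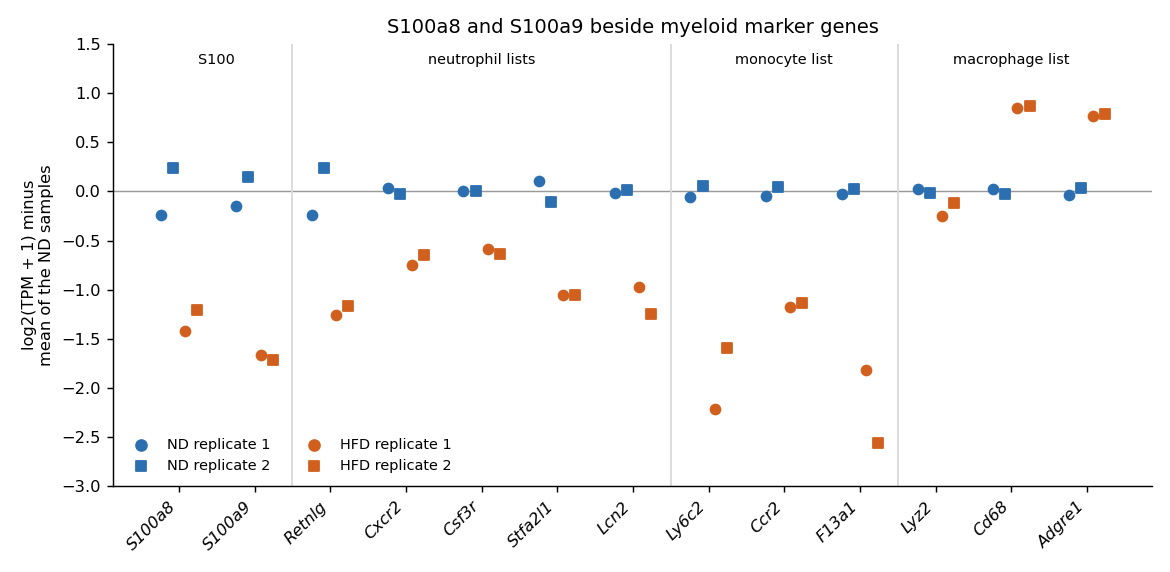
Log2(TPM + 1) of each sample minus the mean of the ND samples for S100a8, S100a9 and genes of the neutrophil, monocyte and macrophage lists, blue for ND and orange for HFD. The marker genes were picked after their values were seen and do not stand for their lists, in which other members did not pass the thresholds or, as C1qa among the macrophage markers (-0.62), had the opposite sign. The HFD points of both S100 genes and of the neutrophil and monocyte genes shown lie below the ND points, while those of Cd68 and Adgre1 lie above.

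Other lists were read as a setting for the members, beside the 8.08% of all genes tested that were DEGs higher and the 10.3% that were lower. Ptprc, the gene of CD45, had 54.5 and 59.4 TPM with ND against 55.3 and 53.7 TPM with HFD. Of the 10 macrophage markers, 2 were DEGs higher and 1 was lower in HFD, and they summed to 19952.6 and 19360.6 TPM with ND against 16652.0 and 17948.9 TPM with HFD, far above the neutrophil and monocyte lists. All 10 lipid-associated macrophage markers rose, with a median log2 fold change of 2.39. Of 7 nonclassical monocyte markers 3 were DEGs lower in HFD, and of 7 dendritic cell markers 3. Both HFD values lay below both ND values for 6 nonclassical monocyte and 7 dendritic cell markers (32.8% of all genes tested). They lay above for 1 nonclassical monocyte marker (34.1%). All 6 T cell, 6 B cell and 6 NK cell markers tested were DEGs lower in HFD, with medians of -2.40, -2.02 and -2.07. Pax5 of the B cell and Klre1 of the NK cell list reached 1 TPM in the ND samples only. They entered the test through the diet in which they were high, which makes their part of the count no support. Among genes with a mean of 5 TPM or more, 6 T cell, 4 B cell and 4 NK cell markers were DEGs. Without a filter 4 of the T cell, 5 of the B cell and 6 of the NK cell markers were called, and of the macrophage markers 2, both higher. Of 7 mesothelial markers 1 was a DEG lower in HFD (0 without a filter, with 2 at an unadjusted p under 0.05 in limma). Of 8 epididymal epithelium markers 5 were DEGs lower in HFD (4 without a filter). Adam28 and Rnase10 of these 5 reached 1 TPM in the ND samples only. They entered the test through the diet in which they were high, which makes their part of the count no support. Both HFD values lay below both ND values for 4 mesothelial and 7 epididymal markers (32.8% of all genes tested). They lay above for 1 mesothelial marker (34.1%). In limma 0 of 6 endothelial and 0 of 8 spermatid markers passed the thresholds, with 4 and 0 at an unadjusted p under 0.05. The spermatid markers summed to 7321.4 TPM in HFD replicate 1 and to between 1931.9 and 2209.2 TPM in the other samples, and without HFD replicate 2 all 8 were called higher.

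The genes whose pattern over the 4 samples was most like that of the pair were ranked by the distance between centred log2(TPM + 1) values, among the 10723 genes whose mean reached 5 TPM. For S100a8 they were Flrt3 (0.128), Retnlg (0.133), Snord88c (0.175), LOC108167355 (0.212) and Gimap8 (0.226), each as a distance in log2 units. For S100a9 they were Csf2 (0.096), Lifr (0.115), 2010016I18Rik (0.134), Klrk1 (0.142) and Ednrb (0.16). Of the 5 genes nearest S100a8, Retnlg is in the list of mature neutrophil markers, and none of those nearest S100a9 is in any list. Csf2, the gene of GM-CSF, had 16.3 and 20.7 TPM with ND against 4.7 and 5.0 TPM with HFD.

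Receptors bound by S100 proteins did not follow one direction. Ager, the gene of RAGE, had 0.8 TPM in both ND samples and 0.7 TPM in both HFD samples and was below the filter. Tlr4, the receptor through which calprotectin signals to the inflammatory pathway, had 30.9 and 35.0 TPM with ND against 35.3 and 33.0 TPM with HFD, a log2 fold change of 0.052 (95% confidence interval -0.22 to 0.32, adjusted p = 0.704 in limma), which was -0.067 after quantile normalization and -0.0072 when rescaled without the 50 most abundant genes. Bsg, or basigin, was at 109.4 and 108.8 TPM with ND against 110.9 and 112.6 TPM with HFD. Its log2 fold change of 0.034 turned to -0.059 and -0.026 under the same scalings. Of the 5 tested receptor genes 3 were DEGs, where 18.4% of all genes tested were, and with 5 genes this is no result about the list. Cd36, a scavenger receptor that also takes up fatty acids, rose from 131.3 and 137.1 TPM to 308.4 and 314.0 TPM (log2 fold change 1.21, adjusted p = 0.00449 in limma). Nptn, the gene of neuroplastin, rose from 43.4 and 47.4 TPM to 69.6 and 68.6 TPM (0.60, adjusted p = 0.0153 in limma), close to the 1.5-fold limit. It fell below that limit with a pseudocount of 5 (0.56), median-ratio scaling (0.57), quantile normalization (0.48) and rescaling without the 50 most abundant genes (0.54), and lost its call without HFD replicate 1 or 2 (adjusted p = 0.0685 and 0.0563 in limma). Cd33, a sialic acid-binding receptor whose human counterpart is described as a receptor of S100A9, fell from 41.3 and 48.8 TPM to 14.9 and 11 TPM (-1.73, adjusted p = 0.0153 in limma), but was not a DEG without a filter (adjusted p = 0.0621). Whether mouse CD33 binds S100A9 is not known from these data.

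Genes of annexins bound by S100 proteins were DEGs, while S100a10 and S100a11 were not, and the difference between their changes was not tested. Anxa1 rose from 605.1 and 640.9 TPM with ND to 2811.9 and 2830.4 TPM with HFD, a log2 fold change of 2.18 (SE 0.04, adjusted p = 0.00378 in limma). The ratio of Anxa1 to S100a11 in TPM was 0.662 and 0.699 in ND and 2.62 and 2.34 in HFD. Anxa2 rose from 604.9 and 607.7 TPM to 1279.9 and 1328.2 TPM (1.10, adjusted p = 0.00449 in limma), and its ratio to S100a10 went from 0.927 and 0.937 in ND to 2.26 in each HFD sample. Anxa6 fell from 139.3 and 139.8 TPM to 85.1 and 89.2 TPM (-0.67, adjusted p = 0.00797 in limma). The transcripts of annexin A2 and S100a10 were thus close to equal in ND and unequal in HFD.

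**Figure D5:**
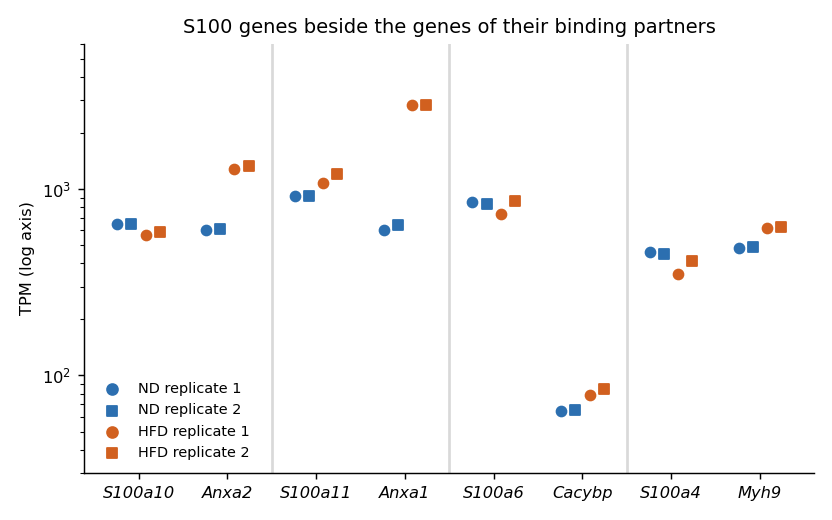
TPM on a log axis for S100a10 beside Anxa2, S100a11 beside Anxa1, S100a6 beside Cacybp and S100a4 beside Myh9, 1 point per sample, blue for ND and orange for HFD. Anxa2 moves from the level of S100a10 in ND to 2.26 times that level in both HFD samples, and Anxa1 from below S100a11 to above it.

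Among the 14 genes of partner proteins, 12 were tested, 3 were DEGs higher (Anxa1, Anxa2 and Iqgap1) and 1 was lower (Anxa6). Of all genes tested, 8.08% were DEGs higher and 10.3% were lower. Iqgap1, a scaffold of the cytoskeleton, rose from 120.1 and 128.3 TPM to 201.9 and 194.4 TPM (0.67, adjusted p = 0.0101 in limma), with 0.54 after quantile normalization, below the limit. Myh9, the myosin heavy chain bound by S100A4, Cacybp, which binds S100A6, and Sugt1 had adjusted p-values of 0.0113, 0.0317 and 0.0416 in limma but changes below 1.5-fold (0.35, 0.33 and 0.33). Capzb (0.063), Ppp5c (-0.26), Ahnak (-0.021), Fgf1 (0.085) and Il1a (-0.27) did not pass, and Plg and Syt1 were listed at 0 in each sample. Of the partners, Ahnak turned to 0.049 without ND replicate 2 and 0.12 without HFD replicate 2, and Fgf1 to -0.10 without HFD replicate 2. Capzb was at -0.11 after quantile normalization.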

How the data were processed

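The authors prepared stranded mRNA libraries from CD45+ cells, trimmed reads (Trim Galore 0.4.2, cutadapt 1.9.1), aligned them to mm10 (STAR 2.6.1e), removed duplicate reads, counted them (featureCounts 1.6.2) and deposited TPM per gene, printed to 1 decimal. TPM are shares of a sample's RNA and not counts. The annotation, the strand setting and the depth are not given in the sources used here. The values were compared as log2(TPM + 1) with limma 3.58.1 (variance trend, Benjamini-Hochberg adjustment over 16849 genes) in R 4.3.3, and the steps were tested on simulated data. The members, gene lists, motifs and rules for named genes were chosen with earlier results of these data known. Named were all members, the other S100 genes, receptors and partners, the most abundant or absent markers of each list, examples from the neutrophil and monocyte lists picked after their values were seen, the 5 genes with the most similar pattern to S100a8 and to S100a9, and genes beside the cluster. The lists covered mature neutrophils, neutrophil precursors, classical and nonclassical monocytes, macrophages, lipid-associated macrophages, T, B, NK and dendritic cells, fibroblasts, mesothelium, adipocytes, endothelium, Schwann cells, epididymal epithelium and spermatids. A marker each of the classical monocyte and Schwann cell lists is not reported here and was left out of those lists. Replicates were not copies of each other: between the ND samples 98.5% of the 7719 genes at 10 TPM or more differed in the printed value, and between the HFD samples 98.8% of 7551. The alternatives were other pseudocounts, filters and scalings, no variance trend, a replicate block, a 2-fold limit and each sample left out. Plots used Python 3.11.15 and matplotlib 3.10.9.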

Additional observations from a re-analysis of the deposited data

How the results depend on the processing

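S100a1 stayed a DEG under each setting that kept all samples, except the 2-fold limit. S100a8 was not a DEG without a filter (log2 fold change -1.31, adjusted p = 0.106 in limma), and neither S100a8 nor S100a9 (-1.69) was with a replicate block (0.0511 and 0.0507). The block left 1 member called and 812 DEGs, and of the 7 receptor and partner genes called it left 3 (Anxa1, Anxa2 and Cd36). Retnlg, Csf3r, Hdc, Ly6c2, F13a1 and Lcn2 were not DEGs with the block either, and of the 5 epididymal calls 2 were left. Equal replicate numbers carried no shared deviation (correlation -0.015, across 16849 genes, which are not independent), so no pairing was assumed. The number of DEGs was 3097, with 2015 at a pseudocount of 5, 1774 without a filter and 1604 at a 2-fold limit. At a 2-fold limit 2 members were called. The contrast of S100a8 and S100a9 with the broadly expressed members was -1.14 with a pseudocount of 5, which shrinks changes of low genes. Tlr4 turned to -0.067 after quantile normalization and -0.0072 without the 50 most abundant genes, Bsg to -0.059 and -0.026, and Capzb to -0.11 after quantile normalization. With each sample left out in turn, the lone sample of a diet being assumed to vary like the other diet, the log2 fold change lay between -1.55 and -1.08 for S100a8, -1.84 and -1.54 for S100a9, and the contrast between -1.61 and -1.23. The DEGs then numbered 0 to 4227 and the members called 0 to 2, with 0 DEGs in limma without ND replicate 1 or 2, where 3862 and 4024 genes had an unadjusted p under 0.05. S100a6 lay between -0.20 and 0.043, Tlr4 between -0.035 and 0.14, Ahnak between -0.16 and 0.12 and Fgf1 between -0.10 and 0.27. Depth limits S100b and Ly6g.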
